A study of Mus musculus with 12 samples.

Results

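Fatty acid oxidation genes were followed in mouse regulatory T cells (Treg cells, which hold immune responses in check) with and without the transcription factor Batf. The 31 genes were chosen by name as enzymes of mitochondrial and peroxisomal beta-oxidation, out of 24421 entries in the deposited RPKM table, and all 31 were present and tested among 10406 entries. RNA was sequenced from sorted cells of C57BL/6 mice aged 7 weeks, in 4 groups of 3 libraries. The groups were KO cells after 48 h of stimulation, WT cells after 48 h of stimulation, unstimulated KO cells and unstimulated WT cells. KO stands for the genotype Foxp3CreBatffl/fl, in which Cre under control of Foxp3, the lineage factor of Treg cells, deletes loxP-flanked Batf in cells that express Foxp3. WT cells are given only as WT, so whether they carried Cre is not stated. For stimulation, anti-CD3 and anti-CD28 were coated on the plate at 5 µg/ml and IL-2 was given at 200 U/ml.

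Beta-oxidation breaks fatty acids down to acetyl-CoA. A fatty acid is first joined to coenzyme A by an acyl-CoA synthetase, carried into mitochondria on carnitine, and then shortened in repeated rounds of dehydrogenation, hydration, a further dehydrogenation and thiolytic cleavage, while electrons pass through the electron transfer flavoprotein to the respiratory chain. Peroxisomes run a parallel pathway for very long and branched chains. Resting and regulatory T cells are known for using lipid oxidation as a fuel, whereas T cells stimulated through their receptor are known to raise glycolysis and lipid synthesis.

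RPKM counts reads relative to exon length and to the library's assigned reads, so levels can be compared between genes. Values are RPKM means ± SD over n = 3 libraries, or the values of libraries 1, 2 and 3 in that order. Fold changes come from limma on log2(RPKM + 1), a scale that understates changes of genes with low values, and a gene is said to have risen or fallen only at an adjusted p (Benjamini-Hochberg over all 10406 genes) under 0.05. Libraries held 22731823 to 32055383 assigned reads. Whether each library is a separate animal is not stated, so p-values measure only the spread between libraries, which may be technical. In bulk RNA, fewer cells of a type and less RNA per cell cannot be told apart. RPKM is relative to the library's total, so a fall does not show that a cell held less of that RNA.

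Batf was at 26.5, 21.2 and 17.98 RPKM in stimulated KO libraries, 134, 125 and 128 in stimulated WT libraries, 46.9, 32.99 and 25.9 in unstimulated KO libraries and 103, 93.3 and 90.03 in unstimulated WT libraries. Every KO library lay below every WT library, although reads remained in KO cells. The extent of the deletion is not stated. All 8 Treg cell markers were tested, with summed RPKM of 1062 to 1162 in stimulated KO, 1360.1 to 1399 in stimulated WT, 1828 to 1915 in unstimulated KO and 2000.3 to 2159 in unstimulated WT libraries. Foxp3 stood at 27.5 ± 1.24 in stimulated KO, 33.96 ± 2.79 in stimulated WT, 58.4 ± 6.83 in unstimulated KO and 70.2 ± 4.99 in unstimulated WT libraries. The 8 markers did not all move as Foxp3 and the sum did. With stimulation their log2 fold changes ran from -2.11 to 0.83 in KO and from -2.66 to 1.19 in WT cells. Between KO and WT they ran from -2.03 to 0.32 in stimulated and from -0.63 to 0.07 in unstimulated cells. The 6 B cell markers summed to 3.997 to 8.32 RPKM in stimulated KO and 2.65 to 4.39 in stimulated WT libraries, against 43.2 to 87.5 in unstimulated KO and 39.0 to 45.5 in unstimulated WT libraries. The 11 myeloid markers summed to 0.753 to 1.62, 2.99 to 3.503, 20.6 to 22.8 and 30.6 to 38.1 RPKM in the same order of groups, and Csf1r, C1qa and C1qb were at 0 in stimulated KO and C1qa, C1qb, C1qc and Fcgr1 in stimulated WT libraries. The 4 genes listed for conventional CD4 T cells were Cd40lg, Il2, Ifng and Il4. They summed to 97.8 to 275 in stimulated KO and 104 to 137 in stimulated WT libraries. In unstimulated libraries the sums were 17.1 to 21.5 in KO and 23.6 to 25.2 in WT. Between stimulated KO and WT cells their log2 fold changes ran from -0.98 to 1.86. Their sum cannot tell more such cells from more of this RNA in stimulated Treg cells. The 4 NK cell markers summed to 1.35 to 1.73 in stimulated KO, 0.428 to 0.656 in stimulated WT, 4.02 to 8.58 in unstimulated KO and 6.59 to 8.86 in unstimulated WT libraries. The 2 CD8 T cell markers summed to 3.62 to 5.84 in the stimulated libraries, against 15.2 to 18.1 in the unstimulated ones, and the 3 red cell markers to 0.0158 to 0.178, against 2.69 to 8.84, with Hba-a1 and Hbb-bs at 0 throughout. The part of these markers' cells in the member values was not tested. WT libraries 1 and 2 of both states held Y-linked transcripts (Eif2s3y at 38.6 to 57.7 RPKM) and the other 8 libraries did not (at most 0.07 RPKM), so sex was partly confounded with genotype.

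Hadha and Hadhb encode the alpha and beta chains of the mitochondrial trifunctional protein, which carries out the later reactions of each round on long chains. They lie head to head on chromosome 5, with 272 bases between their start sites in the table's coordinates (mm10). Their shared upstream DNA is shown because these genes fell together on stimulation, as described below with the thiolase steps. It is the RefSeq sequence of the 250 bases before Hadhb (GRCm38.p6, plus strand, chr5:30155003-30155252), with the Hadhb start site just beyond its 3′ end and the Hadha start site beyond its 5′ end.
Hadhb upstream: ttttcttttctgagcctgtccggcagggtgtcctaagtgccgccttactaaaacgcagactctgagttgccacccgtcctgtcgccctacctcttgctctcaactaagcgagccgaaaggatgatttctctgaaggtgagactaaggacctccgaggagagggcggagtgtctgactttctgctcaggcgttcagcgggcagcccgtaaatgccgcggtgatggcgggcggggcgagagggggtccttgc
None of the motifs searched on both strands was found in the 300-base windows of Hadha and Hadhb.

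RefSeq promoter windows (250 bases before to 50 after the start site) were on hand for 24 members, and the start site equalled that of the table for 22 of them. Windows were not on hand for Acot13, Crat, Acad9, Acaa2, Acat1, Decr1 and Hsd17b4. The nuclear receptor core motif AGGTCA was in the window of 4 of these 24 members and in 16.26% of 32851 windows of all genes. The longer form AAGGTCA, which estrogen-related receptors bind and which contains the core motif, was in the Acadm window alone among members and in 4.718% of all windows. In the stretches below, written 5′ to 3′ on the strand of the gene, capitals mark the core motif or its reverse complement.
Acadm, chr3:153944854-153944893, minus strand: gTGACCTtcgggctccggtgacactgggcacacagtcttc
Acadvl, chr11:70015496-70015535, minus strand: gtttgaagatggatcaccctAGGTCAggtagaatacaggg
Cpt1a, chr19:3323187-3323226, plus strand: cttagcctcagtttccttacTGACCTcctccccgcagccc
Echs1, chr7:140116485-140116524, minus strand: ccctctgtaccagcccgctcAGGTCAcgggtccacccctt
The AP-1 motif TGANTCA, which dimers of BATF and JUN proteins bind, was in 1 member's window, that of Acadvl, and in 7.808% of all windows. It began 17 bases into the transcribed part, and capitals mark it here.
Acadvl, chr11:70015396-70015422, minus strand: ttgtggagcaTGAGTCAgggcccagac
The E-box CACGTG was in none of the 24 windows and in 7.15% of all windows. A match describes these letters only and is not evidence of binding.

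The stimulation comparison asked how the RNA of these enzymes differed between Treg cells stimulated for 48 h and unstimulated ones. No culture time or IL-2 is given for unstimulated cells. The effects of the antibodies, IL-2 and time in culture therefore cannot be told apart. Most enzymes of the oxidation rounds fell in both genotypes, while the acyl-CoA synthetases rose. In KO cells 17 of 31 members fell and 7 rose, and in WT cells 21 fell and 7 rose. Of all tested genes, 34.6% fell and 44.3% rose in KO cells, and 35.4% fell and 44.5% rose in WT cells, while 54.8% and 67.7% of members fell. In either direction 78.8% of tested genes were called in KO and 79.9% in WT cells. Stimulated and unstimulated libraries did not overlap for 7 members higher and 18 lower in KO cells, and 7 higher and 20 lower in WT cells. Over all tested genes these shares were 45.3% and 35.1% in KO and 45.4% and 36.3% in WT cells. The median log2 fold change of the members was -0.46 in KO and -0.51 in WT cells, beside 0.12 and 0.11 over all tested genes. The same 17 members fell in both genotypes and 6 rose in both (Acsl1, Acsl3, Acsl4, Acsl5, Crat and Acad9), and 0 moved in opposite directions. Shared calls over all tested genes were not counted, so this agreement is not shown to be particular to the members.

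**Figure D1:**
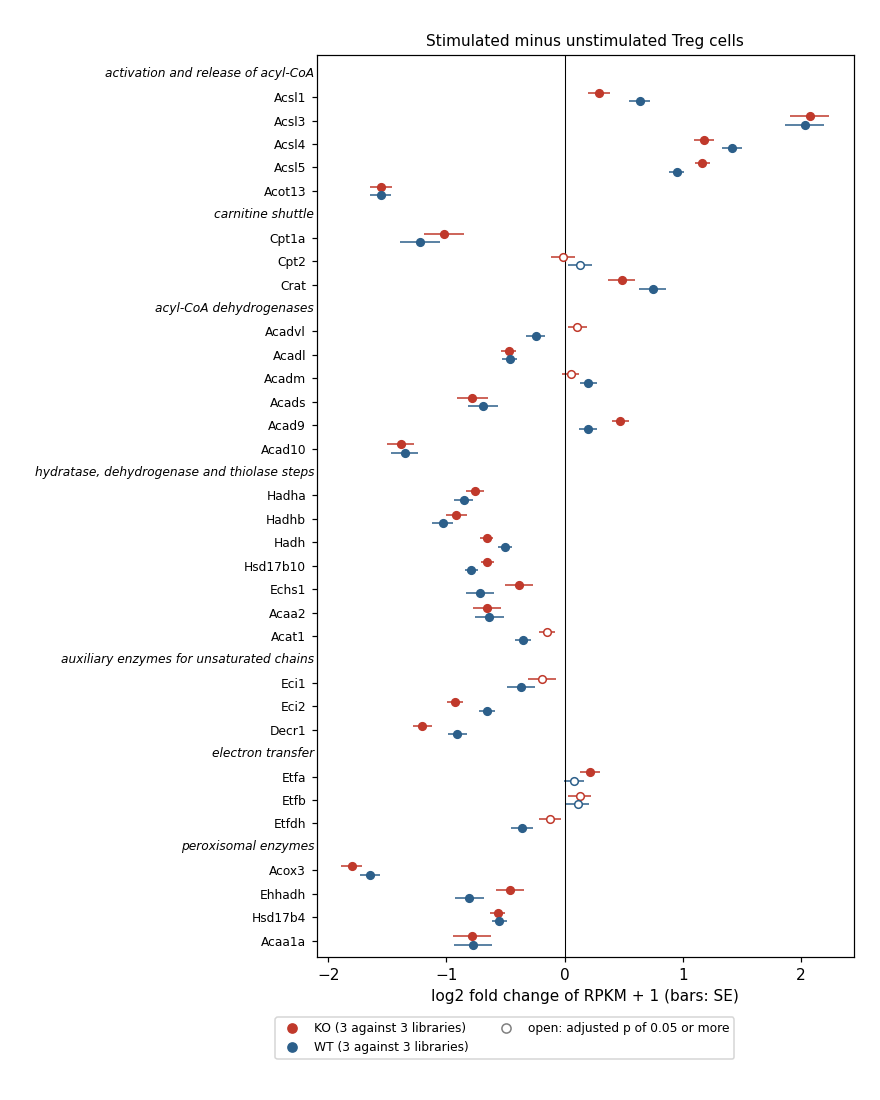
Log2 fold change of RPKM + 1, stimulated minus unstimulated, for each of the 31 members in KO (red) and WT (blue) cells, with SE from limma as bars, grouped by role. Filled points passed the adjusted p of 0.05. The 4 Acsl genes lie right of 0 in both genotypes, from 0.29 to 2.07, and the hydratase, dehydrogenase and thiolase genes lie left of 0.

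Acyl-CoA synthetases of the Acsl family activate long-chain fatty acids, the step that comes before oxidation as well as before lipid synthesis. Acsl3 (chromosome 1, 78657825 to 78707743) was at 15.6, 13.4 and 13.3 RPKM in stimulated KO libraries, against 2.001, 3.66 and 2.27 in unstimulated KO libraries. In WT it was at 11.9, 14.9 and 16.3 in stimulated libraries, against 3.204, 2.94 and 2.12 in unstimulated libraries. Every stimulated library lay above every unstimulated library, with a log2 fold change of 2.07 (SE 0.17, adjusted p = 6.31e-08) in KO and 2.03 (SE 0.17, adjusted p = 7.22e-08) in WT cells. Exons of Acsl3 overlap those of Utp14b on the same strand in the table, and the handling of reads in the overlap is not stated. Acsl4 (chromosome X, 142317993 to 142390535), which prefers polyunsaturated chains such as arachidonate, was at 22.4, 21.01 and 21.04 in stimulated KO libraries, against 8.61, 10.1 and 8.14 in unstimulated KO libraries. It was at 26.6, 29.3 and 29.2 in stimulated WT libraries, against 10.2, 10.5 and 9.26 in unstimulated WT libraries. Again no stimulated library overlapped an unstimulated library (log2 fold change 1.18, SE 0.08, adjusted p = 1.84e-08 in KO; log2 fold change 1.42, SE 0.08, adjusted p = 2.66e-09 in WT). Acsl5, the most abundant of the family, reached 162 ± 2.29 in stimulated KO cells, against 71.5 ± 4.27 in unstimulated KO cells (log2 fold change 1.17), and 139 ± 7.03 in stimulated WT cells, against 71.4 ± 3.07 in unstimulated WT cells (0.95). Acsl1 was the least changed, with log2 fold changes of 0.29 in KO and 0.63 in WT cells, and the KO call was lost after median-ratio rescaling (adjusted p = 0.052).

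Acot13 is a mitochondria-associated thioesterase, which releases free fatty acid from acyl-CoA, the reverse of the Acsl step. Acot13 (chromosome 13, 24817955 to 24831489) was at 14.4, 12.5 and 15.01 RPKM in stimulated KO libraries, against 43.6, 41.2 and 43.9 in unstimulated KO libraries. In WT it was at 16.8, 13.4 and 14.99 in stimulated libraries, against 50.1, 45.6 and 42.9 in unstimulated libraries. The stimulated values were all below the unstimulated ones (log2 fold change -1.55, SE 0.09, adjusted p = 2.83e-09 in KO; log2 fold change -1.56, SE 0.09, adjusted p = 2.42e-09 in WT).

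Cpt1a, carnitine palmitoyltransferase on the outer mitochondrial membrane, is the rate-limiting entry step of long-chain oxidation. Cpt1a (chromosome 19, 3323301 to 3385733) was at 7.62, 5.37 and 5.599 RPKM in stimulated KO libraries, against 18.8, 12.3 and 10.5 in unstimulated KO libraries. It was at 7.103, 6.54 and 6.37 in stimulated WT libraries, against 16.8, 15.2 and 18.7 in unstimulated WT libraries. It fell in both genotypes without overlap (log2 fold change -1.02, SE 0.17, adjusted p = 8.49e-05 in KO; log2 fold change -1.22, SE 0.17, adjusted p = 1.56e-05 in WT), and library 1 was the highest KO library in both states. Cpt2, which hands the acyl group back to coenzyme A inside mitochondria, was at 8.15 ± 0.302 and 9.43 ± 0.879 in stimulated KO and WT cells, against 8.24 ± 0.467 and 8.58 ± 1.42 in the unstimulated ones, and did not pass in either genotype (adjusted p = 0.907 and 0.262), although it passed in WT without unstimulated WT library 3 (adjusted p = 0.0273). Crat, carnitine acetyltransferase, rose, with 1.75 ± 0.275 in stimulated KO cells, against 0.966 ± 0.102 in unstimulated KO cells (log2 fold change 0.48), and 2.46 ± 0.371 in stimulated WT cells, against 1.06 ± 0.116 in unstimulated WT cells (0.75). On reads with limma-voom the Crat rises were 0.86 and 1.22. Part of a Crat exon overlaps Dolpp1 on the opposite strand, and the strand setting of the counting is not stated, so reads of the pair may be mixed.

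The acyl-CoA dehydrogenases carry out the opening step of each round, and they differ in the chain lengths they take. Acad10 (chromosome 5, 121621029 to 121660510) was at 0.263, 0.283 and 0.302 RPKM in stimulated KO libraries, against 2.64, 2.31 and 2.14 in unstimulated KO libraries. It was at 0.317, 0.162 and 0.2802 in stimulated WT libraries, against 2.64, 1.92 and 2.08 in unstimulated WT libraries. This was the steepest fall among the dehydrogenases (log2 fold change -1.39, SE 0.11, adjusted p = 6.52e-08 in KO; log2 fold change -1.36, SE 0.11, adjusted p = 7.86e-08 in WT), and at these low levels it depended on the scale, with -3.03 in KO and -3.16 in WT by limma-voom on reads. Acads, for short chains, fell in KO (log2 fold change -0.78) and WT cells (-0.69), and Acadl, for long chains, fell by 0.47 and 0.46 on the log2 scale. Acadvl, for very long chains, fell in WT cells (log2 fold change -0.24, SE 0.08, adjusted p = 0.0139; adjusted p = 0.0681 without unstimulated and 0.0552 without stimulated WT library 3) and was at 0.11 in KO cells (adjusted p = 0.244). Acad9, also an assembly factor of respiratory complex I, rose in KO cells (log2 fold change 0.47, SE 0.07, adjusted p = 5.26e-05). Its WT rise was small (log2 fold change 0.20, SE 0.07, adjusted p = 0.0256) and was lost without any 1 of unstimulated WT library 1 and stimulated WT libraries 1 and 2 (adjusted p from 0.0674 to 0.116). It also missed the threshold in the 6 WT libraries alone (0.0561) and with a replicate block by genotype and number (0.0523). After median-ratio rescaling it was 0.10 (adjusted p = 0.229), and without the 4 libraries with Y-linked transcripts its direction turned (-0.0084, adjusted p = 0.958). Acadm, for medium chains, rose in WT cells (log2 fold change 0.20, SE 0.07, adjusted p = 0.0177; KO log2 fold change 0.05, adjusted p = 0.509), and that call was lost without unstimulated WT library 1 (adjusted p = 0.055) or stimulated WT library 2 (0.0738) and after median-ratio rescaling, which moved it to 0.11 (adjusted p = 0.179).

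Of the hydratase, dehydrogenase and thiolase genes, 6 of 7 fell in KO and 7 of 7 in WT cells after stimulation, and all 7 log2 fold changes were negative in KO cells too. Hadha was at 26.5 ± 0.7905 RPKM in stimulated KO cells, against 45.6 ± 3.88 in unstimulated KO cells, and at 25.5 ± 0.452 in stimulated WT cells, against 46.98 ± 4.12 in unstimulated WT cells (log2 fold changes -0.76 and -0.86). Hadhb, its head-to-head neighbour, was at 28.9 ± 1.04, against 55.5 ± 3.77, in KO cells and 25.1 ± 3.78, against 52.1 ± 1.87, in WT cells (-0.92 and -1.03). The log2 fold changes of the others in KO and WT cells were -0.66 and -0.51 for Hadh, a hydroxyacyl-CoA dehydrogenase of shorter chains, and -0.65 and -0.79 for Hsd17b10, which also serves in isoleucine breakdown and mitochondrial RNase P. They were -0.39 and -0.72 for the short-chain hydratase Echs1 and -0.65 and -0.64 for the thiolase Acaa2. Acat1, the acetoacetyl-CoA thiolase, fell in WT cells (-0.35) and was at -0.15 in KO cells (adjusted p = 0.0662), where it passed at -0.26 after median-ratio rescaling (0.00312).

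Of the 3 enzymes that prepare unsaturated chains, Decr1 and Eci2 fell in both genotypes. Decr1 (chromosome 4, 15917240 to 15945507), dienoyl-CoA reductase, was at 8.06, 6.81 and 7.696 RPKM in stimulated KO libraries, against 19.4, 17.3 and 19.2 in unstimulated KO libraries. It was at 9.82, 9.18 and 8.48 in stimulated WT libraries, against 18.03, 17.2 and 18.9 in unstimulated WT libraries. All stimulated values lay below all unstimulated ones (log2 fold change -1.20, SE 0.08, adjusted p = 1.28e-08 in KO; log2 fold change -0.91, SE 0.08, adjusted p = 2.15e-07 in WT). The enoyl-CoA isomerase Eci2 fell in both genotypes (-0.93 and -0.66). Its relative Eci1 fell in WT cells (log2 fold change -0.37, SE 0.12, adjusted p = 0.0106; adjusted p = 0.0557 and a log2 fold change of -0.24 without stimulated WT library 3). In KO cells Eci1 was at -0.19 (adjusted p = 0.146), and it passed at -0.32 without unstimulated KO library 2 (0.0153) and at -0.30 after median-ratio rescaling (0.0365).

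Etfa and Etfb encode the chains of the electron transfer flavoprotein, and Etfdh its oxidoreductase in the inner membrane. Etfa (chromosome 9, 55454436 to 55512243) was at 105, 92.6 and 92.3 RPKM in stimulated KO libraries, against 88.8, 76.6 and 83.9 in unstimulated KO libraries. It was at 86.00, 71.9 and 74.5 in stimulated WT libraries, against 67.7, 75.8 and 76.3 in unstimulated WT libraries. The KO groups did not overlap and the WT groups did, and Etfa rose in KO (log2 fold change 0.22, SE 0.09, adjusted p = 0.0323) while the WT value did not pass (log2 fold change 0.08, SE 0.09, adjusted p = 0.42). The KO call was lost without any 1 of stimulated KO library 1 and unstimulated KO libraries 2 and 3 (adjusted p from 0.0512 to 0.143) and after median-ratio rescaling, which moved it to 0.10 (adjusted p = 0.288). Etfb passed in neither genotype (0.13 and 0.11), except in KO cells without unstimulated KO library 1 (adjusted p = 0.0203). Etfdh fell in WT cells (log2 fold change -0.36, SE 0.09, adjusted p = 0.00254; adjusted p = 0.089 without the 4 libraries with Y-linked transcripts). In KO cells it was at -0.12 (adjusted p = 0.223), and it passed at -0.22 without unstimulated KO library 3 (0.0337) and at -0.23 after median-ratio rescaling (0.0198).

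The 4 peroxisomal enzymes fell in both genotypes. Acox3 (chromosome 5, 35583060 to 35613801), a peroxisomal acyl-CoA oxidase for branched chains, was at 2.44, 2.39 and 2.18 RPKM in stimulated KO libraries, against 11.5, 10.2 and 10.2 in unstimulated KO libraries. It was at 2.697, 2.45 and 2.105 in stimulated WT libraries, against 10.1, 9.32 and 9.61 in unstimulated WT libraries. This was the largest fall of any member in both genotypes on this scale (log2 fold change -1.80, SE 0.09, adjusted p = 5.37e-10 in KO; log2 fold change -1.65, SE 0.09, adjusted p = 1.08e-09 in WT). The bifunctional enzymes Ehhadh (-0.46 in KO and -0.81 in WT) and Hsd17b4 (-0.57 and -0.55) and the thiolase Acaa1a (-0.78 and -0.78) fell less. Acaa1a resembles Acaa1b in sequence, which was at no more than 1.51 RPKM in any library, so reads that match both copies make its level uncertain.

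**Figure D2:**
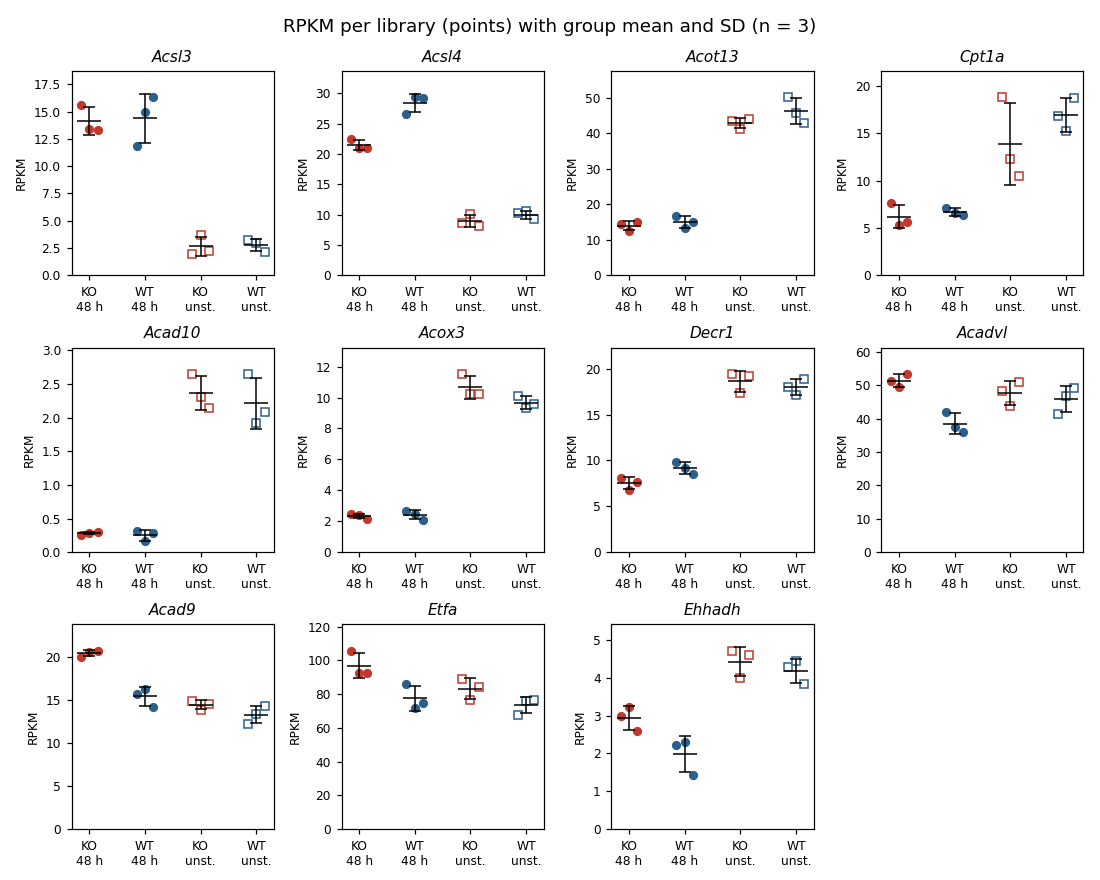
RPKM of 11 members in each of the 12 libraries (points; left to right within a group, libraries 1 to 3), with group mean and SD (n = 3) in black. Red is KO and blue is WT, filled circles are stimulated and open squares unstimulated. Acsl3 and Acsl4 stand higher and Acot13, Cpt1a, Acad10, Acox3 and Decr1 lower in stimulated cells of both genotypes. In stimulated cells KO libraries lie above WT libraries for Acadvl, Acad9, Etfa and Ehhadh and below them for Acsl4 and Decr1, without overlap.

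Summed over the 31 members, RPKM was 971 ± 33.3 in stimulated KO, 889 ± 41.7 in stimulated WT, 1102 ± 46.4 in unstimulated KO and 1073 ± 16.4 in unstimulated WT libraries. Genes of the hydratase, dehydrogenase and thiolase steps summed to 258 ± 4.64 in stimulated KO, against 403 ± 10.4 in unstimulated KO, and to 244 ± 10.3 in stimulated WT, against 403 ± 6.78 in unstimulated WT libraries. Synthetases and thioesterase together summed to more in stimulated cells, with 215 ± 1.69 in stimulated KO, against 129 ± 4.71 in unstimulated KO, and 202 ± 4.83 in stimulated WT, against 133 ± 4.58 in unstimulated WT libraries. In each of these pairs the summed RPKM of stimulated and unstimulated libraries did not overlap. As a share of assigned reads the 31 members did overlap in KO cells, at 0.201% to 0.211% in stimulated and 0.208% to 0.221% in unstimulated libraries.

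**Figure D3:**
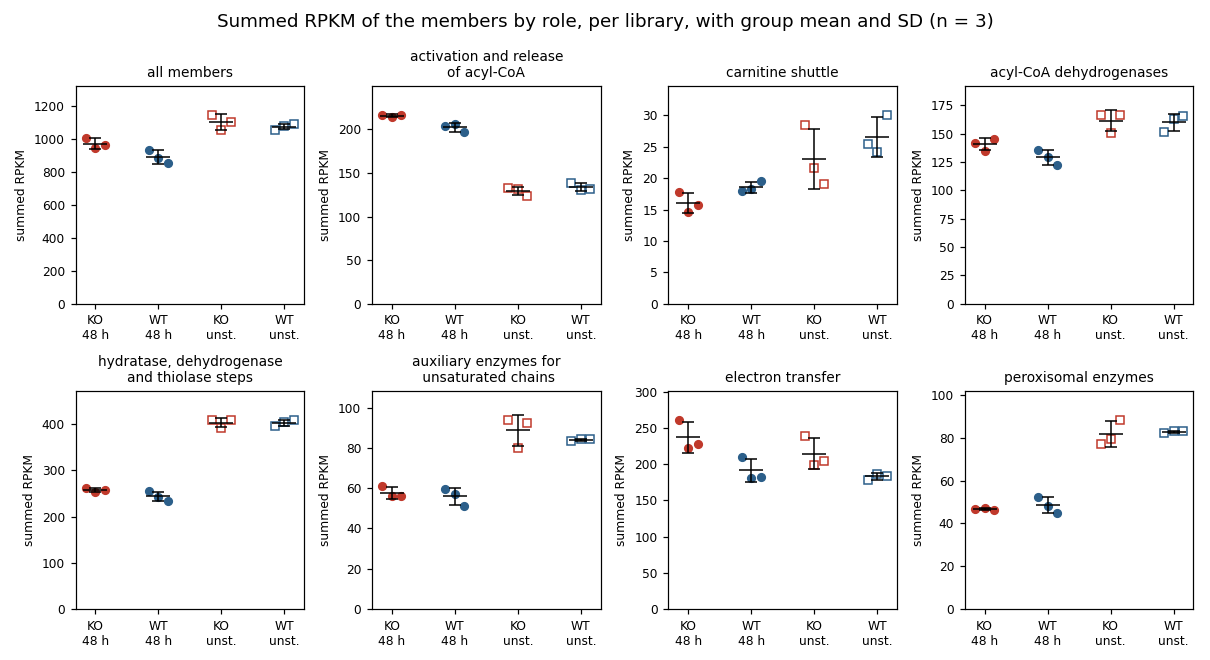
Summed RPKM of all 31 members and of each of the 7 roles in each library (points), with group mean and SD (n = 3) in black; red is KO, blue is WT, filled circles are stimulated and open squares unstimulated. Stimulated libraries are higher for activation and release and lower for the thiolase, auxiliary and peroxisomal groups, and KO libraries are higher than WT libraries for electron transfer in both states.

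The next comparison set KO against WT cells after 48 h of stimulation, to see how Batf loss bears on these enzymes in activated Treg cells. Of 31 members, 7 rose in KO (Acsl5, Acadvl, Acad9, Acat1, Etfa, Etfdh and Ehhadh) and 6 fell (Acsl1, Acsl4, Acadm, Hadh, Decr1 and Hsd17b4). Of all tested genes 17.6% were called, 7.76% higher and 9.81% lower, while 41.9% of members were called, 22.6% higher and 19.4% lower. The changes were small on the scale of log2(RPKM + 1), which understates those of genes with low values, and ran from -0.38 to 0.41. The members' median was 0.04, beside -0.0036 over all tested genes. It was 0.0723 without stimulated WT library 1 and 0.0131 without stimulated WT library 2. Members ranked at a median percentile of 70.9 by mean RPKM among tested genes. Libraries of KO and WT did not overlap for 10 members higher and 10 lower in KO, where 19.7% and 22.1% of all tested genes were apart in this way.

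**Figure D4:**
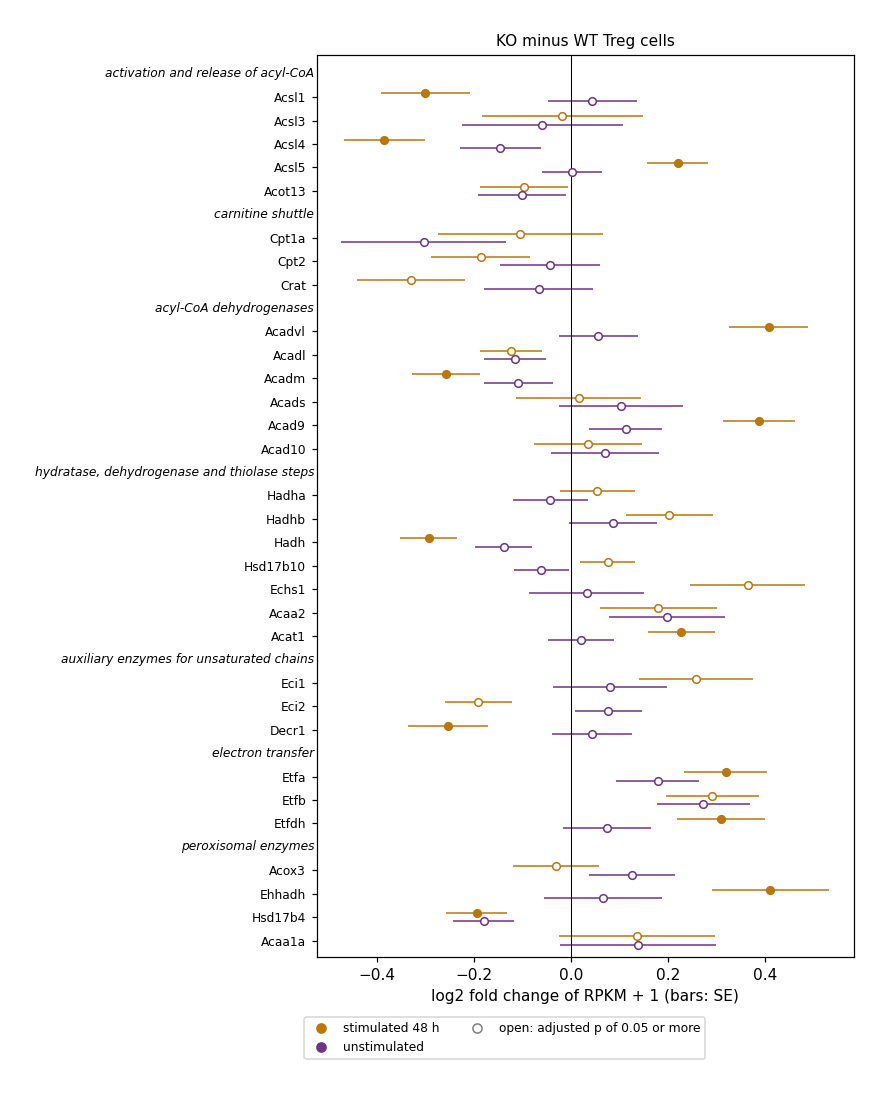
Log2 fold change of RPKM + 1, KO minus WT, for each of the 31 members in stimulated (orange) and unstimulated (purple) cells, with SE from limma as bars, grouped by role. Filled points passed the adjusted p of 0.05: 13 did in stimulated cells, between -0.38 and 0.41, and 0 in unstimulated cells.

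Acadvl and Acad9 were the members whose rise in stimulated KO cells passed in all 20 alternatives tried. Acadvl (chromosome 11, 70010183 to 70015428) was at 51.3, 49.4 and 53.2 RPKM in stimulated KO libraries, against 41.9, 37.5 and 36.1 in stimulated WT libraries. All KO libraries lay above all WT libraries (log2 fold change 0.41, SE 0.08, adjusted p = 0.00431, with adjusted p between 0.00258 and 0.0255 over the alternatives). Acad9 (chromosome 3, 36066000 to 36092857) was at 20.01, 20.6 and 20.7 in stimulated KO libraries, against 15.8, 16.3 and 14.2 in stimulated WT libraries. It too was apart in all libraries (log2 fold change 0.39, SE 0.07, adjusted p = 0.00339, with adjusted p between 0.00144 and 0.0225 over the alternatives). Among the other dehydrogenases Acadm fell, with 16.9 ± 1.28 in stimulated KO and 20.4 ± 1.12 in stimulated WT cells (log2 fold change -0.26, SE 0.07, adjusted p = 0.024), a call that ended on omitting any 1 of stimulated KO libraries 1 and 2 or WT libraries 2 and 3 (adjusted p from 0.0575 to 0.107). Acadl was at 29.2 ± 1.29 in stimulated KO and 31.9 ± 0.7801 in stimulated WT cells (adjusted p = 0.194), Acads at 22.6 ± 1.24 and 22.7 ± 4.58 (adjusted p = 0.949) and Acad10 at 0.282 ± 0.0193 and 0.253 ± 0.0809 (adjusted p = 0.856).

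The acyl-CoA synthetases split in stimulated KO cells. Acsl4 was at 22.4, 21.01 and 21.04 RPKM in stimulated KO libraries, against 26.6, 29.3 and 29.2 in stimulated WT libraries. Every KO library was lower (log2 fold change -0.38, SE 0.08, adjusted p = 0.00722), and the call held without each library in turn. Without the 4 libraries that hold Y-linked transcripts, where WT library 3 alone stands for WT, the value was -0.43 (adjusted p = 0.0688). Acsl4 lies on the X chromosome. Acsl1 fell as well, with 4.26 ± 0.164 in stimulated KO and 5.48 ± 0.119 in stimulated WT cells (log2 fold change -0.30, SE 0.09, adjusted p = 0.0391), and omitting any 1 of the 6 stimulated libraries, or unstimulated WT library 2, ended the call (adjusted p from 0.0525 to 0.12). Acsl5 rose, with 162 ± 2.29 in stimulated KO and 139 ± 7.03 in stimulated WT cells (log2 fold change 0.22, SE 0.06, adjusted p = 0.0285). Omitting any 1 of stimulated KO libraries 1 to 3 or WT libraries 2 and 3 ended that call (adjusted p from 0.0579 to 0.117). Acsl3 (log2 fold change -0.02, adjusted p = 0.953) and Acot13 (-0.10, adjusted p = 0.482) did not pass. In the carnitine shuttle none of 3 passed. Cpt1a was at -0.10 (adjusted p = 0.704), Cpt2 at -0.19 (0.224, or 0.0244 when the model held a Y-linked term) and Crat at -0.33 (0.0576). Crat passed by limma-voom on reads (0.0352) and with that term (0.0345).

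Of the 3 electron transfer genes, Etfa and Etfdh rose in stimulated KO cells. Etfa was at 105, 92.6 and 92.3 RPKM in stimulated KO libraries, against 86.00, 71.9 and 74.5 in stimulated WT libraries. The lowest KO library exceeded the highest WT library (log2 fold change 0.32, SE 0.09, adjusted p = 0.0226). Etfdh rose too, with 15.03 ± 1.35 in stimulated KO and 11.9 ± 0.786 in stimulated WT cells (log2 fold change 0.31, SE 0.09, adjusted p = 0.0343). Etfb was at 139, 115 and 120.4 in stimulated KO libraries, against 111, 97.8 and 96.7 in stimulated WT libraries. Its libraries were apart as well, but its adjusted p of 0.0521 lay just over the threshold, and 7 of 20 alternatives put it under, among them limma-voom on reads (0.0402). The Etfa call was lost without any 1 of stimulated KO library 1 and WT libraries 2 and 3 (adjusted p from 0.0812 to 0.0945), and the Etfdh call without any 1 of stimulated KO libraries 1 and 3 and WT libraries 2 and 3 (0.0878 to 0.123). Both calls were also lost with a Y-linked term (adjusted p = 0.0661 for Etfa and 0.0534 for Etfdh) and without the 4 libraries with Y-linked transcripts (0.0712 and 0.137).

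Among the later steps, Hadh fell to 38.5 ± 0.536 RPKM in stimulated KO cells, against 47.4 ± 1.25 in stimulated WT cells (log2 fold change -0.29, SE 0.06, adjusted p = 0.00428), and passed without each library in turn. Without the 4 libraries with Y-linked transcripts it was at -0.26 (adjusted p = 0.0755). Acat1 rose, with 26.95 ± 1.07 in stimulated KO and 22.9 ± 1.54 in stimulated WT cells (log2 fold change 0.23, SE 0.07, adjusted p = 0.0374). Its call was lost without any 1 of stimulated KO libraries 1 to 3, stimulated WT libraries 1 and 2 and unstimulated WT library 2 (adjusted p from 0.0516 to 0.139), and it was 0.14 once Y-linked transcripts entered as a term (adjusted p = 0.215). Echs1 was at 26.5 ± 1.19 in stimulated KO and 20.5 ± 3.03 in stimulated WT cells (log2 fold change 0.36, SE 0.12, adjusted p = 0.0501), and passed in 6 of 20 alternatives. Hadha (0.05, adjusted p = 0.657), Hadhb (0.20, 0.136), Hsd17b10 (0.08, 0.375) and Acaa2 (0.18, 0.316) did not pass, although Hadhb did without stimulated WT library 1 (log2 fold change 0.32, adjusted p = 0.0087). Decr1 was at 8.06, 6.81 and 7.696 in stimulated KO libraries, against 9.82, 9.18 and 8.48 in stimulated WT libraries. Its fall was at the edge of the threshold (log2 fold change -0.25, SE 0.08, adjusted p = 0.0493) and was lost in 17 of 20 alternatives, with adjusted p up to 0.441. Eci1 (0.26, adjusted p = 0.146) and Eci2 (-0.19, 0.0735, or 0.0465 without stimulated WT library 1) did not pass.

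Of the peroxisomal enzymes, Ehhadh rose and Hsd17b4 fell. Both serve the same middle reactions of the peroxisomal round. Ehhadh (chromosome 16, 21761285 to 21787834) was at 2.99, 3.23 and 2.601 RPKM in stimulated KO libraries, against 2.22, 2.29 and 1.44 in stimulated WT libraries. WT library 3 was the lowest of these 6, and the groups did not overlap (log2 fold change 0.41, SE 0.12, adjusted p = 0.0339). Without stimulated WT library 3 the log2 fold change was 0.27 and the adjusted p 0.15, and the call was also lost without KO library 1 or 2. Hsd17b4 was at 25.8 ± 1.31 in stimulated KO and 29.6 ± 0.514 in stimulated WT cells (log2 fold change -0.19, SE 0.06, adjusted p = 0.0493), and its call was lost in 15 of 20 alternatives, 9 of them fits without 1 library, with adjusted p up to 0.214. Acox3 (-0.03) and Acaa1a (0.14) did not pass (adjusted p = 0.843 and 0.591).

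In unstimulated cells no member passed between KO and WT. By limma 0 of 31 members were called, where 10.2% of all tested genes were, 4.35% higher and 5.83% lower, and limma-voom on reads also called 0. At an unadjusted p under 0.05 there were 3 members (Hadh, Etfb and Hsd17b4), while 26.4% of all tested genes met that bound. The smallest adjusted p was that of Hsd17b4, at 38.7 ± 2.39 RPKM in unstimulated KO and 43.9 ± 0.803 in unstimulated WT cells (log2 fold change -0.18, SE 0.06, adjusted p = 0.0881, or 0.0357 without unstimulated KO library 2). Etfb was at 133, 105 and 106 in unstimulated KO libraries, against 94.4, 95.7 and 92.3 in unstimulated WT libraries. KO library 1 stood highest, and all KO libraries exceeded all WT libraries (log2 fold change 0.27, SE 0.10, adjusted p = 0.0902). Etfb passed after median-ratio rescaling (0.0443) and with a replicate block by library number (0.0383). Log2 fold changes of the 31 members ran from -0.30 to 0.27, with a median of 0.04, beside -0.02 over all tested genes. The median turned to -0.0207 without the 4 Y-linked libraries, and was 0.0153 without WT library 1, 0.0276 without KO library 1 and 0.0113 without KO library 3. The libraries did not overlap for 4 members higher and 3 lower in KO, and 12.4% and 15.5% of all tested genes were apart in this way.

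Cpt1a was the lowest of these fold changes. It was at 18.8, 12.3 and 10.5 RPKM in unstimulated KO libraries, against 16.8, 15.2 and 18.7 in unstimulated WT libraries. KO libraries 2 and 3 lay below every WT library, while KO library 1 was level with the highest WT library (log2 fold change -0.30, SE 0.17, adjusted p = 0.276). Without KO library 1 the log2 fold change was -0.53 (adjusted p = 0.0323), and without KO library 3 it was -0.14 (adjusted p = 0.686, the highest of the alternatives). Acadvl was at 48.2, 43.9 and 50.8 in unstimulated KO libraries, against 41.4, 46.8 and 49.3 in unstimulated WT libraries, and Acad9 at 14.9, 13.9 and 14.5, against 12.2, 13.4 and 14.3. These genes, apart in stimulated cells, overlapped here (log2 fold change 0.06, SE 0.08, adjusted p = 0.704 for Acadvl; log2 fold change 0.11, SE 0.07, adjusted p = 0.366 for Acad9). Acsl4 was at 8.61, 10.1 and 8.14 in unstimulated KO libraries, against 10.2, 10.5 and 9.26 in unstimulated WT libraries, with overlap (log2 fold change -0.15, SE 0.08, adjusted p = 0.289). Etfa was at 88.8, 76.6 and 83.9 in unstimulated KO libraries, against 67.7, 75.8 and 76.3 in unstimulated WT libraries, without overlap (log2 fold change 0.18, SE 0.09, adjusted p = 0.204).

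The interaction tested whether stimulation moved a member by different amounts in KO and WT cells, which is the same as asking whether the genotype difference changed with stimulation. By limma 0 of 31 members passed, where 4.62% of all tested genes passed, 2.37% positive and 2.25% negative, and limma-voom on reads also called 0. At an unadjusted p under 0.05 there were 6 members (Acsl1, Acsl5, Acadvl, Acad9, Eci2 and Decr1), and 19.5% of all tested genes met that bound. The smallest adjusted p was that of Acadvl (log2 fold change 0.35, SE 0.12, adjusted p = 0.112), followed by Eci2 (-0.27, adjusted p = 0.15) and Acsl1 (-0.34, adjusted p = 0.162). So 13 members passed between genotypes in stimulated cells and 0 in unstimulated cells, but for no member was the difference between the states itself past the threshold. A p over the threshold does not show that the differences were equal.

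A further 114 genes of the pathway's surroundings were listed: other oxidation enzymes, carnitine and acyl-CoA transport, fatty acid uptake and binding, lipolysis, and regulators. Of these, 87 were tested. With stimulation 26 rose and 37 fell in KO cells, where 44.3% of all tested genes rose and 34.6% fell. In WT cells 31 rose and 41 fell, where 44.5% and 35.4% of all tested genes did. The 6 with the smallest adjusted p in KO cells were Phyh (-2.67), Lipa (-2.21), Fasn (2.12), Acss1 (-2.60), Myc (2.53) and Scp2 (-1.49), and in WT cells the same 6 led in another order. Phyh, which starts the removal of branched phytanic acid in peroxisomes, was at 5.19 ± 0.3997 RPKM in stimulated KO cells, against 38.4 ± 4.05 in unstimulated KO cells. Fasn, fatty acid synthase, was at 74.6 ± 3.08 in stimulated KO cells, against 16.3 ± 0.722 in unstimulated KO cells, and at 63.9 ± 5.27 in stimulated WT cells, against 14.2 ± 0.847 in unstimulated WT cells. Lipa, the lysosomal acid lipase that frees fatty acids from lipoprotein lipids, was at 14.8 ± 0.502 in stimulated KO cells, against 72.6 ± 7.61 in unstimulated KO cells.

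Between stimulated KO and WT cells 5 of these 87 genes rose and 5 fell, where 7.76% and 9.81% of all tested genes did. The 6 with the smallest adjusted p were Hif1a (-1.01), Pparg (0.82), Phyh (-0.46), Amacr (0.67), Slc22a5 (0.54) and Sirt1 (-0.36). Hif1a, the hypoxia-inducible factor that drives glycolytic genes, was at 53.7 ± 4.59 RPKM in stimulated KO and 109 ± 15.8 in stimulated WT cells. Pparg, a nuclear receptor for fatty acids, was at 3.43 ± 0.8502 in stimulated KO and 1.48 ± 0.243 in stimulated WT cells, and Slc22a5, the plasma membrane carnitine transporter, at 6.67 ± 0.112 and 4.28 ± 0.416. In unstimulated cells 3 rose and 4 fell, where 4.35% and 5.83% of all tested genes did. The 6 with the smallest adjusted p were Pparg (1.21), Hif1a (-0.48), Acbd6 (0.28), Got2 (0.27), Acadsb (-0.29) and Acss1 (-0.38). Pparg was at 2.76 ± 0.282 in unstimulated KO and 0.637 ± 0.205 in unstimulated WT cells. In the interaction 1 gene, Acad11, was positive (log2 fold change 0.61, SE 0.15, adjusted p = 0.0342) and 0 were negative by limma. At an unadjusted p under 0.05 there were 13 of these genes, 5 of them negative, while 19.5% of all tested genes met that bound. Limma-voom on reads called 1 negative.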

How the data were processed

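Poly(A) RNA of 12 libraries was prepared from 600 ng of RNA with a stranded kit, per the labels' protocols. The submitters' processing notes name FastQC, STAR, featureCounts of Subread and DESeq2 without versions or roles, and the build mm10. The authors deposited RPKM, which multiplied by exon length came out as whole reads (100% within 0.01). The 27 entries with a spreadsheet date for a symbol (0.185% to 0.284% of reads) were left out. Genes reaching 1 RPKM in a minimum of 3 libraries were fitted with limma 3.58.1 in R 4.3.3 on log2(RPKM + 1), with a mean for each group, a mean trend, 8 residual degrees of freedom and Benjamini-Hochberg adjustment. The fit was tested on simulated counts that were independent between libraries and had a fixed spread. That test does not show how the fit performs on these libraries. Replicate pairs differed beyond counting error (chi-square per degree of freedom 5.86 to 39.9). Deviations of same-numbered libraries from their group means correlated between the 2 states at 0.274, 0.19 and 0.11 in KO and at 0.075, 0.134 and 0.146 in WT cells. The numbers were not used as a block in the main fit, only in alternatives. The members and lists were chosen with earlier results of these data known. Values of all libraries are given for Cpt1a and the 5 called members with the largest change in each comparison. Those of Etfb were added after they were seen. Of the listed pathway genes, up to 6 called ones with the smallest adjusted p in each comparison are named.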

Additional observations from a re-analysis of the deposited data

How the results depend on the processing

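Of the members called, 22 of 24 in KO and 23 of 28 in WT cells kept the stimulation call under every alternative, but between stimulated KO and WT cells 2 of 13 did, Acadvl and Acad9. How many of all called genes kept their call was not counted, so these counts are not shown to be particular to the members. No call between genotypes changed sign, while that of some uncalled members did. With the Y-linked term the stimulated KO calls of Acsl1, Acsl5, Acadm, Acat1, Decr1, Etfa, Etfdh and Hsd17b4 were lost, and without the Y-linked libraries those of Acsl4 and Hadh too. The WT rise of Acad9 with stimulation turned to -0.0084 without the 4 libraries with Y-linked transcripts, and the cause was not tested. WT then has 1 library in each state, which is assumed to vary like the other groups. In that fit Batf, the deleted gene, was also no longer called between unstimulated KO and WT cells, at a log2 fold change of -1.37. What caused the lost calls was not tested.

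Between stimulated KO and WT cells, members called higher numbered 3 with the Y-linked term and 4 without those 4 libraries, and members called lower numbered 3 in the 6 libraries alone, 3 with a replicate block by number and 0 without those 4 libraries. Leaving out 1 library at a time gave 2 to 9 members higher and 2 to 6 lower. In unstimulated cells 1 member was higher after median-ratio rescaling and 1 with the replicate block, and 0 to 1 lower on leaving out 1 library. The replicate block by genotype and number changed no member call of KO stimulation and ended that of Acad9 in WT stimulation (adjusted p = 0.0523). No interaction call of a member arose under any alternative. Leaving out 1 library gave 5 to 8 members higher and 19 to 21 lower with stimulation in WT cells, and 6 to 8 higher and 17 to 18 lower in KO cells.

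For the other pathway genes in unstimulated cells, those higher in KO numbered 7 with no filter, 1 in the 6 libraries alone and 0 without the Y-linked libraries (1 to 4 on leaving out 1 library). Those lower numbered 2 on log2(RPKM + 0.1), with no filter, after rescaling and with the block by number, 1 in the 6 libraries alone and with the Y-linked term, and 0 without those libraries (1 to 7). In stimulated cells 10 were higher after rescaling, 3 in the 6 libraries alone and 1 without the Y-linked libraries (3 to 8), and 2 were lower without those libraries (3 to 8). In the interaction 0 were positive with no filter and without those libraries (0 to 1), and 1 was negative after rescaling, by limma-voom and with the Y-linked term, and 2 with the block by genotype and number (0 to 1).

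Over all genes, KO against WT unstimulated gave 196 higher in the 6 libraries alone and 41 without the Y-linked libraries (239 to 574), against 453 reported. It gave 321 lower in the 6 libraries alone, 399 with the Y-linked term and 57 without those libraries (326 to 868), against 607 reported. Stimulated KO against WT gave 633 lower without those libraries, against 1021 reported, and 406 to 1144 higher and 588 to 1270 lower on leaving out 1 library. The interaction gave 9 positive and 15 negative without those libraries, and 107 to 279 positive and 99 to 329 negative on leaving out 1 library. The fewest reads of any member in a library were 16, for Acad10.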

Other observations

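Shares of summed RPKM among isozymes of 1 step were computed per library (means ± SD, n = 3, with no test). Acsl5 held 79.9% ± 1.06 of the Acsl RPKM in stimulated KO and 73.7% ± 2.33 in stimulated WT libraries, and 82.8% ± 1.33 in unstimulated KO and 81.7% ± 1.43 in unstimulated WT libraries. Acsl4 held 10.6% ± 0.41 in stimulated KO and 15.1% ± 0.92 in stimulated WT libraries. Among Acadvl, Acadl, Acadm and Acads, the Acadvl share was 42.7% ± 0.59 in stimulated KO and 33.9% ± 0.93 in stimulated WT libraries, and 32.9% ± 0.80 in unstimulated KO and 31.6% ± 1.36 in unstimulated WT libraries. Cpt1a held at least 93.6% of the Cpt1 RPKM in every library.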
